A study of Mus musculus with 6 samples.

Results

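Respiratory complex I, the NADH:ubiquinone oxidoreductase of the inner mitochondrial membrane, was examined through all genes whose name on the array starts with Nduf. These were 45 genes with 60 probes, of 34812 genes on the arrays, and they comprised accessory and core subunits, 7 assembly factors and the pair Ndufa4 and Ndufa4l2. Each gene was represented by its brightest probe. The study immunoprecipitated AGO2, the argonaute protein that holds microRNAs and their target mRNAs, from mouse bone marrow-derived macrophages with and without Dicer, the RNase III enzyme that cuts microRNA precursors, which addresses which mRNAs are bound by AGO2 in a Dicer-dependent way. The 6 groups had 1 array each: AGO2-RIP RNA (RNA precipitated with an anti-AGO2 antibody), IgG-RIP RNA (precipitated with control IgG) and input RNA (the cleared lysate before precipitation), each from Dicer KO and Dicer WT macrophages. Dicer KO cells came from LysM-Cre/Dicerflox/flox/Apoe-/- mice and Dicer WT cells from LysM-Cre/Dicerwt/wt/Apoe-/- mice, so every group carried the Cre transgene and lacked Apoe. The mice were labelled male and 6 to 8 weeks old, and the marrow cells were grown for 7 days in medium conditioned by L929 cells. The LysM promoter drives Cre in myeloid cells, and the labels do not say how many mice contributed to an array.

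Complex I takes electrons from NADH and passes them to ubiquinone while pumping protons across the inner membrane. Its matrix arm holds the N module, which binds NADH, and the Q module, which reduces ubiquinone. Its membrane arm holds the proton pumps. Most subunits are encoded in the nucleus, translated in the cytosol and imported, while a small set of hydrophobic core subunits (the ND proteins) is encoded in mitochondrial DNA. In macrophages the complex feeds oxidative phosphorylation, is a source of reactive oxygen species and is known to be remodelled upon inflammatory activation.

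Signals are given as log2 of the scanner software's processed signal minus the 75th percentile of the array, so 0 is the level of the 75th percentile of that array's spots. With 1 array per group a difference between 2 arrays has no replicate check, and at least 2-fold is used as a size, not as a test. The noise between spots of probes printed 10 times on an array was 0.14 to 0.17 (SD, log2) on the 6 arrays, which gives 0.22 for a difference between 2 arrays. That figure covers only the spread of spots within an array. It does not cover differences between arrays in precipitation, labelling or hybridisation, nor the spread between cultures. A limma model with fraction and genotype as terms pools both genotypes into 2 arrays per fraction and was the one fit with a residual error. That error is the part of the fraction effect that differs between genotypes.

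The labels and the arrays disagreed on sex. The Y-linked Ddx3y and Eif2s3y were above background on the 3 KO arrays and on none of the WT arrays, and Xist was above background on none of the KO arrays and on the 3 WT arrays, although all mice were labelled male. Each genotype also filled its own row of the same slide. Lyz2, the gene of the LysM locus that drives Cre, also differed although both genotypes are labelled LysM-Cre: it gave 3.56 in KO and -4.30 in WT AGO2-RIP RNA, 4.11 in KO and -1.16 in WT IgG-RIP RNA, and 5.66 in KO and -2.19 in WT input RNA, where the WT AGO2-RIP and WT input values were not well above background. How many Cre copies each genotype carried was not tested. Genotype, sex, slide row and the difference at Lyz2 cannot be told apart in any comparison of KO with WT below. Dicer1 gave 0.94 in KO and 0.93 in WT AGO2-RIP RNA, -2.24 in KO and 0.18 in WT IgG-RIP RNA, and -0.55 in KO and 0.22 in WT input RNA. In input, Dicer1 was thus lower in KO, with KO minus WT at -0.77 on the log2 scale, and its KO IgG-RIP spot was too dim to count as measured. The probe starts at base 9679 of the transcript in the array annotation, and whether it is inside the floxed part was not tested. Of 9 macrophage markers, Lyz2 among them, 8 or 9 were above background on each array, whereas at most 2 of 4 T cell, 1 of 4 B cell, 3 of 6 neutrophil, 1 of 4 fibroblast and 1 of 4 erythroid markers were. No spot was saturated.

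The members whose values are read most closely below were measured by 60-base probes, and 5 are shown because they cover members that stood high or low in the precipitates and carry no AATAAA, the polyadenylation hexamer. The cDNA had been cut with Alu I and Rsa I before labelling, and capitals mark the recognition sites of these enzymes. All coordinates are those of the array annotation (mouse build mm9), and a stretch longer than the probe shows that the probe crosses a splice junction.
Ndufs4: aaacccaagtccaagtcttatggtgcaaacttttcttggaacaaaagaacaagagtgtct
Ndufaf7: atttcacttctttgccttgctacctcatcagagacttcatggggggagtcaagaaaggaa
Ndufs8: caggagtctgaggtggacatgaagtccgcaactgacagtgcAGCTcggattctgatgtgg
Ndufa6: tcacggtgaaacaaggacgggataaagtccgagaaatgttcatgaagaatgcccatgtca
Ndufb8: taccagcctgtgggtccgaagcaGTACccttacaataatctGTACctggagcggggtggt
The probe of Ndufs4 lies at chr13:115078980-115079039 on the minus strand and that of Ndufaf7 at chr17:79346307-79346366 on the plus strand. Ndufs8 is probed at chr19:3911177-3911236 and Ndufa6 at chr15:82181444-82181503, both on the minus strand. The Ndufb8 probe spans chr19:44624855-44627199 on the minus strand, across a junction. An Alu I or Rsa I site was present in the probes of 14 of the 45 members (31.1%), against 32.1% of the probes of the 12368 genes above background on all 6 arrays. Median GC content was 45% in both sets. This hexamer was present in 12 of 45 member probes (26.7%), against 12.9% of all.

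Nearly all members were measurable. Of the 45 genes, 42 were well above background on all 6 arrays. Ndufaf1, an assembly factor that works with Ecsit and Acad9 on the membrane arm, was not above background on any array. Ndufa4l2, a paralogue of Ndufa4 that is induced by hypoxia, was above background on the KO AGO2-RIP and KO input arrays. Ndufaf3, an assembly factor of the Q module, was dim on the KO AGO2-RIP and WT IgG-RIP arrays. The middle of the members lay at 2.55 on the KO AGO2-RIP array and 2.95 on the WT AGO2-RIP array, at 2.28 on the KO IgG-RIP array and 2.19 on the WT IgG-RIP array, and at 3.81 on the KO input array and 4.11 on the WT input array (medians of the 42 to 44 members above background on the array). Levels of different genes also reflect their probes and are not ranked here. In bulk RNA, fewer cells of a type and less RNA per cell cannot be told apart.

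**Figure D1:**
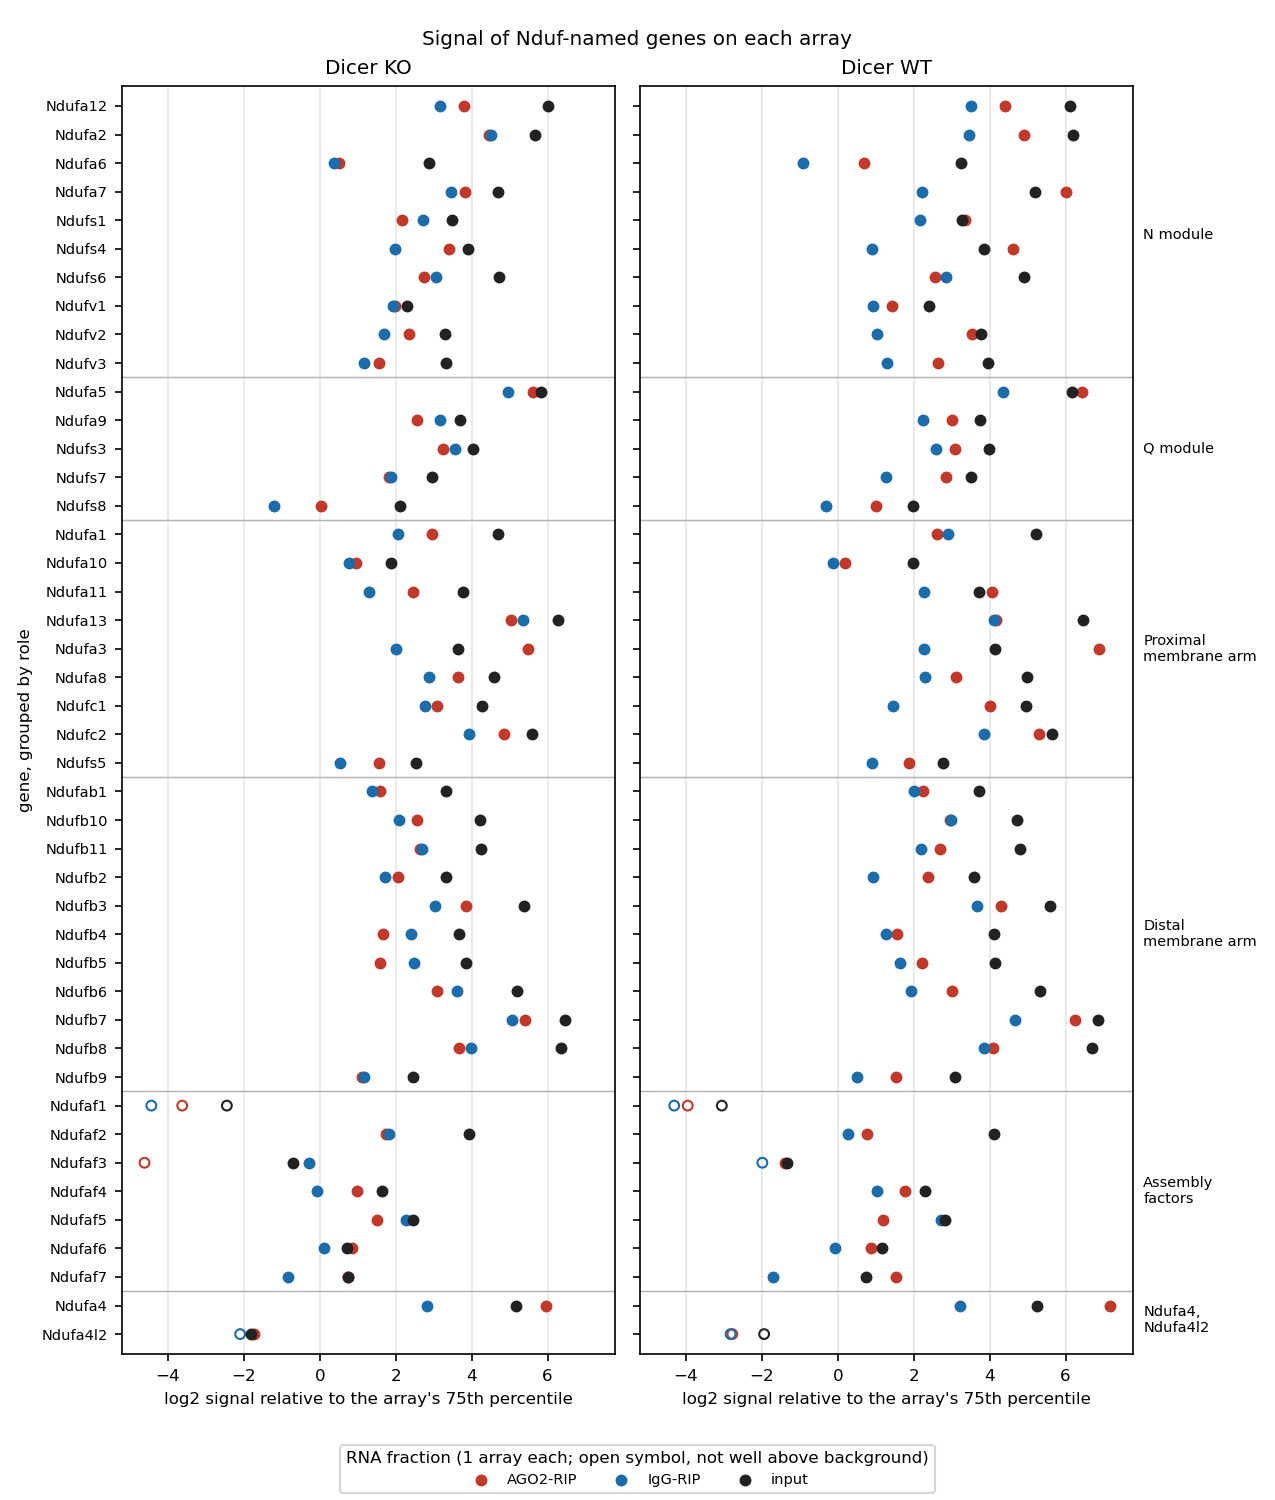
Signal of 44 Nduf-named genes (rows, grouped by role) on the 3 Dicer KO arrays (left) and the 3 Dicer WT arrays (right), as log2 signal relative to the 75th percentile of the array; each point is 1 array and open symbols are not well above background. In most rows the input point lies furthest right and the IgG-RIP point furthest left, while the AGO2-RIP points of Ndufa3 and Ndufa4 lie right of input in both genotypes.

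Complex I transcripts were as a group more abundant in AGO2-RIP than in IgG-RIP RNA, by a median of 0.33 on the log2 scale in KO and 0.97 in WT, where the medians of all measured genes were -0.19 in KO and -0.24 in WT. In KO cells 8 of 42 members were 2-fold or more higher and 0 were 2-fold or more lower, against 10.5% higher and 9.91% lower of the 15638 genes measured. In WT cells 20 of 42 members were that much higher and 1 that much lower, against 20.3% and 22.3% of 15197 genes. The share of members at least 2-fold higher was thus 19.0% in KO and 47.6% in WT. In KO 27 of 42 members lay above 0, against 39.4% of all genes, and in WT 37 of 42, against 43.2%. The differences in KO and WT, which share no array, correlated across the 42 members with Pearson's r = 0.68 and across all 14035 genes measured in both with r = 0.45. This is a description across genes, which share the probe in both genotypes. 6 members were at least 2-fold higher in both genotypes, namely Ndufa3, Ndufa4, Ndufs4, Ndufaf7, Ndufa11 and Ndufs8. limma called 0 of 18882 genes, and so 0% of all genes and 0 of 44 members, at an adjusted p of 0.05 for AGO2-RIP over IgG-RIP. At an unadjusted p under 0.05 it had 2296 genes higher and 1255 lower, with 10 members higher and 1 lower. The count of 0 depended on the setting. Normexp called 227 genes higher and 10 lower. The filter to genes above background on all 6 arrays called 542 and 41, and the fit without genotype 140 and 14.

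**Figure D2:**
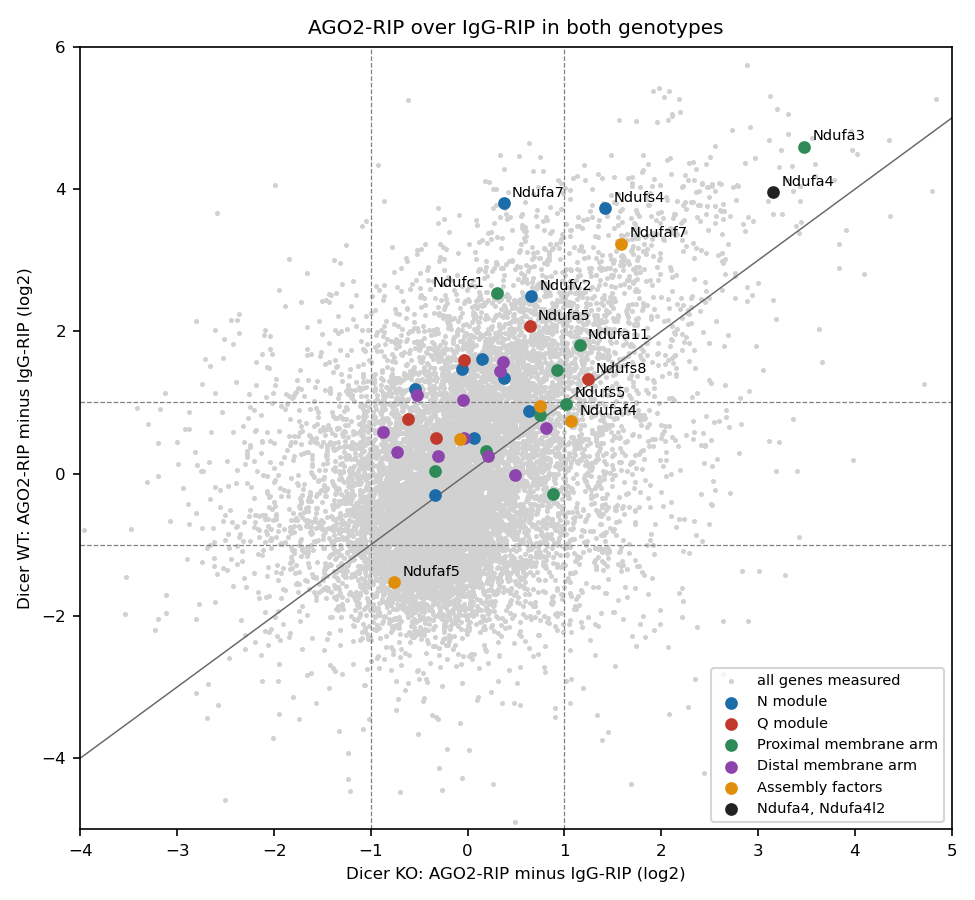
AGO2-RIP minus IgG-RIP (log2) in Dicer KO (horizontal) and Dicer WT (vertical) for 41 Nduf-named genes measured in both, coloured by role, over 14034 genes (grey, 10 outside the axes); dashed lines mark 2-fold and the solid line equality. Most members lie above the line of equality, and Ndufa3 and Ndufa4 lie far from the others in both genotypes.

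Ndufa3, a small single-pass subunit of the proximal membrane arm, stood highest. It gave 5.48 in KO and 6.88 in WT AGO2-RIP RNA, 2.0 in KO and 2.28 in WT IgG-RIP RNA, and 3.65 in KO and 4.14 in WT input RNA. Its AGO2-RIP signal was 11.2-fold that of IgG-RIP in KO and 24.3-fold in WT, and it also exceeded input in both genotypes, by 1.84 in KO and 2.75 in WT on the log2 scale. The pooled limma fold over IgG-RIP was 4.04 on the log2 scale (SE 0.45, adjusted p = 0.0735) and that over input 2.29 (SE 0.45, adjusted p = 0.0440). A second, dimmer Ndufa3 probe was above background on the WT AGO2-RIP array, at -0.77, and on neither IgG-RIP array. It was also above background in input, at -0.93 in KO and -1.33 in WT. On the KO AGO2-RIP array it was not above background, at -4.16. By this probe AGO2-RIP lay below input in KO and 0.55 above it in WT. It thus did not show the KO signal of the brighter probe. The limma call over input was lost with quantile normalization, median centring, the median of probes or no filter. With quantile normalization 0 of 18883 genes were called.

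Ndufa4 was next. Although named for complex I, its protein is now assigned to cytochrome c oxidase (complex IV). It gave 5.97 in KO and 7.18 in WT AGO2-RIP RNA, 2.81 in KO and 3.23 in WT IgG-RIP RNA, and 5.16 in KO and 5.25 in WT input RNA. The AGO2-RIP signal was above both IgG-RIP and input in each genotype, by 3.16 over IgG-RIP in KO and 3.96 in WT. limma put the fold over IgG-RIP at 3.56 on the log2 scale (SE 0.45, adjusted p = 0.0782). Without Ndufa4 and Ndufa4l2 the median of the other members over IgG-RIP was 0.33 in KO and 0.95 in WT.

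The N module, the NADH-binding tip of the matrix arm, differed most between genotypes. Of its 10 members 1 exceeded IgG-RIP at least 2-fold in the KO AGO2 precipitate (median 0.26) and 7 did in WT (median 1.41). Ndufv1, which binds NADH and the flavin, gave 1.99 in KO and 1.44 in WT AGO2-RIP RNA, 1.92 in KO and 0.94 in WT IgG-RIP RNA, and 2.31 in KO and 2.40 in WT input RNA. Ndufv2, which carries an iron-sulfur cluster next to it, gave 2.35 in KO and 3.53 in WT AGO2-RIP RNA, 1.69 in KO and 1.03 in WT IgG-RIP RNA, and 3.29 in KO and 3.77 in WT input RNA. Ndufs1, the largest subunit and a carrier of several iron-sulfur clusters, gave 2.18 in KO and 3.36 in WT AGO2-RIP RNA, 2.72 in KO and 2.18 in WT IgG-RIP RNA, and 3.48 in KO and 3.27 in WT input RNA. Of these core subunits Ndufv2 and Ndufs1 exceeded IgG-RIP at least 2-fold in WT and not in KO, and Ndufs1 lay below IgG-RIP in KO. Among the accessory subunits, Ndufs4, whose loss causes a Leigh-like encephalopathy in mice, gave 3.41 in KO and 4.62 in WT AGO2-RIP RNA, 1.99 in KO and 0.89 in WT IgG-RIP RNA, and 3.91 in KO and 3.86 in WT input RNA. Ndufa7 gave 3.84 in KO and 6.02 in WT AGO2-RIP RNA, 3.47 in KO and 2.22 in WT IgG-RIP RNA, and 4.69 in KO and 5.20 in WT input RNA. Both were above IgG-RIP and above input in WT, and in KO they were below input. Ndufa7 had the widest gap between genotypes of all members, with AGO2-RIP over IgG-RIP at 0.37 in KO and 3.80 in WT.

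Other N module members were lower in the AGO2 precipitate than in input. Ndufa6, of the LYR protein family, gave 0.52 in KO and 0.69 in WT AGO2-RIP RNA, 0.37 in KO and -0.92 in WT IgG-RIP RNA, and 2.88 in KO and 3.24 in WT input RNA. Ndufa12, which replaces the assembly factor Ndufaf2 late in assembly, gave 3.81 in KO and 4.39 in WT AGO2-RIP RNA, 3.17 in KO and 3.51 in WT IgG-RIP RNA, and 6.01 in KO and 6.12 in WT input RNA. Ndufs6, a zinc-binding subunit, gave 2.74 in KO and 2.56 in WT AGO2-RIP RNA, 3.07 in KO and 2.86 in WT IgG-RIP RNA, and 4.72 in KO and 4.91 in WT input RNA. For all 3 genes input was the highest fraction in both genotypes, and Ndufs6 was lowest in AGO2-RIP in both. Ndufa2 gave 4.45 in KO and 4.92 in WT AGO2-RIP RNA, 4.51 in KO and 3.45 in WT IgG-RIP RNA, and 5.67 in KO and 6.19 in WT input RNA. Ndufv3 gave 1.55 in KO and 2.65 in WT AGO2-RIP RNA, 1.18 in KO and 1.30 in WT IgG-RIP RNA, and 3.34 in KO and 3.95 in WT input RNA. For Ndufa2 and Ndufv3, AGO2-RIP exceeded IgG-RIP at least 2-fold in WT and not in KO. The probes of Ndufv3 disagreed: 2 dimmer probes put WT AGO2-RIP below WT IgG-RIP, by -1.67 and -1.83, where the brightest put it above by 1.34. In KO these probes gave -1.43 and -1.07, against 0.37 for the brightest. Their KO minus WT gaps were 0.24 and 0.76, against -0.97 for the brightest.

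In the Q module, 1 of 6 members was at least 2-fold above IgG-RIP in KO (median 0.15) and 3 were in WT (median 1.05). Ndufs7, the carrier of the terminal iron-sulfur cluster, gave 1.83 in KO and 2.86 in WT AGO2-RIP RNA, 1.87 in KO and 1.27 in WT IgG-RIP RNA, and 2.95 in KO and 3.52 in WT input RNA. For Ndufs7, AGO2-RIP exceeded IgG-RIP at least 2-fold in WT and lay within the noise between spots of it in KO. Ndufs3, a structural core subunit of the matrix arm, gave 3.24 in KO and 3.08 in WT AGO2-RIP RNA, 3.56 in KO and 2.59 in WT IgG-RIP RNA, and 4.04 in KO and 3.97 in WT input RNA. Ndufs8, a ferredoxin-like core subunit, gave 0.03 in KO and 1.01 in WT AGO2-RIP RNA, -1.21 in KO and -0.31 in WT IgG-RIP RNA, and 2.12 in KO and 1.99 in WT input RNA. Among the 6 nuclear core subunits described, Ndufs8 alone was at least 2-fold above IgG-RIP in both genotypes. In all 6 of these, input exceeded IgG-RIP in both genotypes.

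Ndufa5, an accessory subunit of the Q module, gave 5.61 in KO and 6.42 in WT AGO2-RIP RNA, 4.97 in KO and 4.35 in WT IgG-RIP RNA, and 5.82 in KO and 6.18 in WT input RNA. Its second probe showed the same direction over IgG-RIP, with 0.30 in KO and 2.54 in WT. Ndufa9, at the junction of matrix and membrane arms, gave 2.55 in KO and 3.01 in WT AGO2-RIP RNA, 3.17 in KO and 2.24 in WT IgG-RIP RNA, and 3.69 in KO and 3.75 in WT input RNA. Ndufa9 was thus below IgG-RIP in KO and above it in WT.

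In the proximal membrane arm 3 of 9 members were at least 2-fold above IgG-RIP in KO (median 0.88) and 4 in WT (median 0.98), the closest of the 4 structural groups between genotypes. Ndufa11 gave 2.46 in KO and 4.07 in WT AGO2-RIP RNA, 1.30 in KO and 2.26 in WT IgG-RIP RNA, and 3.78 in KO and 3.72 in WT input RNA. Ndufc1 gave 3.09 in KO and 4.00 in WT AGO2-RIP RNA, 2.78 in KO and 1.46 in WT IgG-RIP RNA, and 4.28 in KO and 4.95 in WT input RNA. Ndufc2, its neighbour in the membrane arm, gave 4.87 in KO and 5.31 in WT AGO2-RIP RNA, 3.94 in KO and 3.85 in WT IgG-RIP RNA, and 5.58 in KO and 5.66 in WT input RNA. For all 3 genes AGO2-RIP exceeded IgG-RIP in both genotypes, though Ndufc1 in KO by 0.31, little above the noise between spots. Ndufs5 and Ndufa8 are both held by disulfide bonds on the intermembrane-space side. Ndufs5 gave 1.56 in KO and 1.88 in WT AGO2-RIP RNA, 0.54 in KO and 0.90 in WT IgG-RIP RNA, and 2.53 in KO and 2.78 in WT input RNA. Ndufa8 gave 3.64 in KO and 3.12 in WT AGO2-RIP RNA, 2.89 in KO and 2.30 in WT IgG-RIP RNA, and 4.59 in KO and 4.99 in WT input RNA. Their differences over IgG-RIP were nearly equal in the genotypes, at 1.02 in KO and 0.98 in WT for Ndufs5. Ndufa1, a small X-linked subunit, gave 2.96 in KO and 2.62 in WT AGO2-RIP RNA, 2.07 in KO and 2.91 in WT IgG-RIP RNA, and 4.70 in KO and 5.22 in WT input RNA. Ndufa10, related to nucleoside kinases, gave 0.95 in KO and 0.19 in WT AGO2-RIP RNA, 0.76 in KO and -0.14 in WT IgG-RIP RNA, and 1.88 in KO and 1.99 in WT input RNA. Ndufa13, also known as GRIM-19, gave 5.03 in KO and 4.16 in WT AGO2-RIP RNA, 5.36 in KO and 4.12 in WT IgG-RIP RNA, and 6.28 in KO and 6.46 in WT input RNA. None of the last 3 was at least 2-fold above IgG-RIP in either genotype.

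The 11 members of the distal membrane arm, all accessory subunits around the outermost proton pumps, had the lowest medians of the 4 structural groups. None was at least 2-fold above IgG-RIP in KO (median -0.04) and 4 were in WT (median 0.58). Ndufb7 gave 5.42 in KO and 6.24 in WT AGO2-RIP RNA, 5.06 in KO and 4.67 in WT IgG-RIP RNA, and 6.47 in KO and 6.85 in WT input RNA. Ndufb2 gave 2.06 in KO and 2.37 in WT AGO2-RIP RNA, 1.73 in KO and 0.93 in WT IgG-RIP RNA, and 3.32 in KO and 3.58 in WT input RNA. Ndufb9, of the LYR family like Ndufa6, gave 1.11 in KO and 1.54 in WT AGO2-RIP RNA, 1.15 in KO and 0.50 in WT IgG-RIP RNA, and 2.45 in KO and 3.09 in WT input RNA. In these genes the KO AGO2-RIP and KO IgG-RIP signals lay within 0.36 of each other, while in WT they were more than 2-fold apart. Ndufb6 gave 3.09 in KO and 3.02 in WT AGO2-RIP RNA, 3.61 in KO and 1.92 in WT IgG-RIP RNA, and 5.21 in KO and 5.34 in WT input RNA. Ndufb5 gave 1.60 in KO and 2.22 in WT AGO2-RIP RNA, 2.47 in KO and 1.63 in WT IgG-RIP RNA, and 3.84 in KO and 4.15 in WT input RNA. Ndufb4 gave 1.67 in KO and 1.57 in WT AGO2-RIP RNA, 2.40 in KO and 1.26 in WT IgG-RIP RNA, and 3.67 in KO and 4.11 in WT input RNA. The 3 genes were below IgG-RIP in KO and above it in WT, and for Ndufb5 and Ndufb6 a second probe showed the same directions. The second Ndufb4 probe gave -0.62 in KO and -0.10 in WT. Ndufb8 gave 3.68 in KO and 4.09 in WT AGO2-RIP RNA, 3.98 in KO and 3.84 in WT IgG-RIP RNA, and 6.36 in KO and 6.70 in WT input RNA. Ndufb11, the other X-linked member, gave 2.64 in KO and 2.70 in WT AGO2-RIP RNA, 2.68 in KO and 2.20 in WT IgG-RIP RNA, and 4.26 in KO and 4.80 in WT input RNA. In both genes AGO2-RIP and IgG-RIP differed by 0.50 or less in either genotype. Ndufb10 gave 2.57 in KO and 2.95 in WT AGO2-RIP RNA, 2.08 in KO and 2.98 in WT IgG-RIP RNA, and 4.22 in KO and 4.72 in WT input RNA. Ndufb3 gave 3.85 in KO and 4.30 in WT AGO2-RIP RNA, 3.04 in KO and 3.66 in WT IgG-RIP RNA, and 5.39 in KO and 5.59 in WT input RNA. Ndufab1, the mitochondrial acyl carrier protein, gave 1.60 in KO and 2.24 in WT AGO2-RIP RNA, 1.39 in KO and 2.0 in WT IgG-RIP RNA, and 3.34 in KO and 3.71 in WT input RNA. In these 3 genes too the AGO2-RIP signal was well below input and closer to IgG-RIP.

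Assembly factors, which build the complex and are not part of it, were mixed. Ndufaf7, a methyltransferase, gave 0.74 in KO and 1.54 in WT AGO2-RIP RNA, -0.84 in KO and -1.69 in WT IgG-RIP RNA, and 0.75 in KO and 0.73 in WT input RNA. Ndufaf5, which hydroxylates Ndufs7, gave 1.52 in KO and 1.20 in WT AGO2-RIP RNA, 2.28 in KO and 2.73 in WT IgG-RIP RNA, and 2.46 in KO and 2.84 in WT input RNA. They stood at opposite ends: Ndufaf7 was above IgG-RIP in both genotypes, and Ndufaf5 was the lowest member in WT and below IgG-RIP in KO as well. The 2 other Ndufaf5 probes were not above background on any array. Ndufaf2 gave 1.74 in KO and 0.77 in WT AGO2-RIP RNA, 1.83 in KO and 0.28 in WT IgG-RIP RNA, and 3.94 in KO and 4.11 in WT input RNA. Ndufaf4 gave 0.99 in KO and 1.78 in WT AGO2-RIP RNA, -0.07 in KO and 1.04 in WT IgG-RIP RNA, and 1.63 in KO and 2.30 in WT input RNA. Its second, dimmer probe differed in KO, with AGO2-RIP at -2.89, not above background, and IgG-RIP at -1.78. In WT that probe gave -0.90 in AGO2-RIP and -4.20 in IgG-RIP RNA, the latter not above background. Ndufaf6 gave 0.85 in KO and 0.88 in WT AGO2-RIP RNA, 0.10 in KO and -0.07 in WT IgG-RIP RNA, and 0.72 in KO and 1.18 in WT input RNA. Among all members Ndufaf2 lay furthest below input in WT AGO2-RIP RNA, and Ndufaf6 lay within 0.30 of input in AGO2-RIP RNA of both genotypes. Ndufaf3 gave -4.61 in KO and -1.39 in WT AGO2-RIP RNA, -0.29 in KO and -1.98 in WT IgG-RIP RNA, and -0.71 in KO and -1.34 in WT input RNA, where the KO AGO2-RIP and WT IgG-RIP values were not well above background. Taking as the bound the higher of the array's dimmest signal well above background and the gene's own dim signal, Ndufaf3 was at least 4.77-fold below IgG-RIP in the KO AGO2 precipitate and at least 1.51-fold above it in WT. The limma fit used the signals of every array, the dim ones included, and gave an adjusted p of 0.395 for the pooled difference.

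Against input, most complex I transcripts gave lower signals in both precipitates. In AGO2-RIP RNA the median member was at -1.19 in KO and -1.21 in WT, where all measured genes had medians of -0.23 in KO and -0.24 in WT. In KO 1 of 43 members exceeded input 2-fold or more and 25 were that far below it, against 14.6% and 26.4% of 15273 genes. In WT the counts were 2 above and 22 below of 43, against 14.8% and 26.4% of 14406 genes. The distal membrane arm was lowest, with 11 of 11 members at least 2-fold below input in KO (median -1.65) and 10 of 11 in WT (median -1.77). The Q module was nearer input, with 3 of 6 in KO (median -0.96) and 1 of 6 in WT (median -0.81). limma called 1 member higher, which was Ndufa3, and 5 lower, against 4.45% higher and 5.75% lower of all 18882 genes tested. The 5 that fell were Ndufb8 (-2.64, SE 0.39, adjusted p = 0.0374), Ndufs6 (-2.17), Ndufaf2 (-2.77), Ndufa12 (-1.97) and Ndufa1 (-2.18, adjusted p = 0.0470), on the log2 scale over input. These calls depended on the scaling. Quantile normalization gave 0 member calls, median centring 13 lower and 0 higher, and normexp 20 lower and 2 higher. Over all genes these settings called 0, 1991 and 2414 lower. With 1 array left out a fraction can rest on 1 array, so only sizes are given. The median limma fold of the members was -0.93 without the KO AGO2-RIP array and -1.40 without the WT one. It was -1.36 without the KO input array and -0.98 without the WT one, against -1.24 with all 6 arrays. All genes lay between -0.08 and -0.03 in these fits.

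In IgG-RIP RNA the distance from input was larger. The median member was at -1.59 in KO and -2.28 in WT, where all genes had -0.26 in KO and -0.45 in WT. In KO 34 of 43 members were 2-fold or more below input and 0 were that far above it, against 28.8% and 17.5% of 14327 genes. In WT 40 of 42 were that far below and 0 above, against 37.0% and 18.6% of 13331 genes. The N module went furthest in WT, with 10 of 10 members lower (median -2.69), led by Ndufa6 at -4.16. Ndufs8 was the lowest in KO, at -3.33. Ndufaf5 stayed near input in both, at -0.19 in KO and -0.11 in WT. limma called 31 of 44 members lower and 0 higher, against 15.8% lower and 14.3% higher of all genes. Ndufa12 had -2.73 on the log2 scale (SE 0.38, adjusted p = 0.0202) and Ndufb8 -2.62 (adjusted p = 0.0202). With quantile normalization 7 members and 1258 of 18883 genes were called lower. Fits without an array can rest a fraction on a single array, so only sizes are given for them. The median limma fold of the members was -2.03 without the KO input array and -1.75 without the WT one. It was -2.20 without the KO IgG-RIP array and -1.43 without the WT one, against -1.94 with every array. All genes lay between -0.27 and -0.14 in these fits, against -0.25 with every array.

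**Figure D3:**
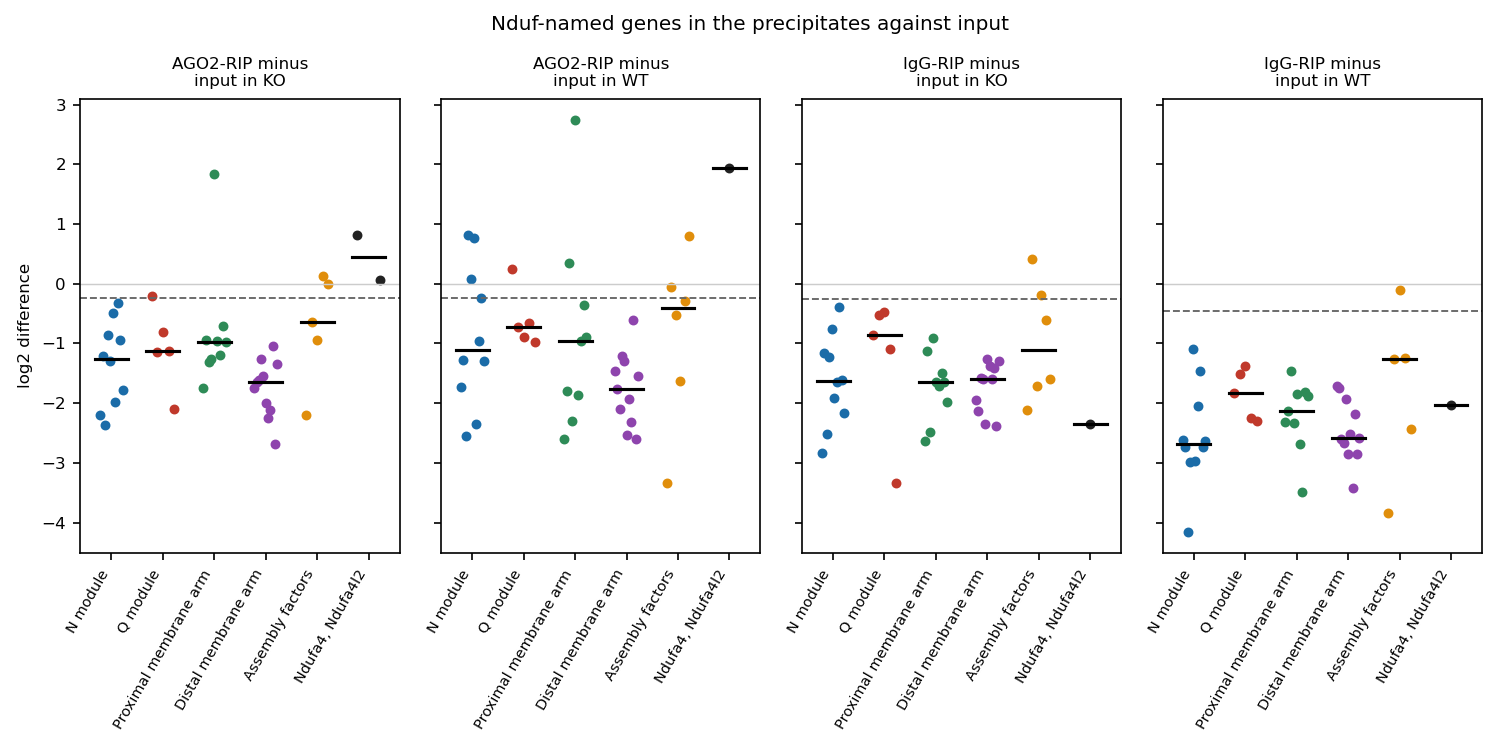
Difference from input (log2) of measured Nduf-named genes, by role, for AGO2-RIP in KO and WT (left panels) and IgG-RIP in KO and WT (right panels); bars are the medians of the points drawn, the dashed line is the median of all measured genes and the grey line is 0. Most points lie below the dashed line in all 4 panels, and Ndufa3 and Ndufa4 are the points highest above 0 in the AGO2-RIP panels.

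A restriction to genes bright in input was added after the data were seen. Input is also the denominator of these differences, so choosing genes by it can lower them. How much of the shift below comes from this choice was not tested. Among the 5807 genes whose mean input signal was at least 2, the all-gene median of the limma fold over input was -0.82 for AGO2-RIP and -1.14 for IgG-RIP, against -0.03 and -0.25 among all 18882 genes. The 38 members in this brighter set had medians of -1.27 for AGO2-RIP and -1.96 for IgG-RIP. The all-gene split also moved with the scaling. AGO2-RIP over input had 841 genes called higher and 1085 lower, and 605 and 1991 after median centring. IgG-RIP over input had 2706 higher and 2988 lower, 1852 and 4983 after median centring, and 2019 and 1258 after quantile normalization.

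No measured Nduf-named gene reached 2-fold between KO and WT input RNA. The median member was at -0.30 in KO minus WT, with all measured genes at -0.08, and 36 of 43 members were below 0, against 58.1% of all genes. At 2-fold, 0 of 43 members were higher and 0 lower, against 1.02% higher and 1.72% lower of 14653 genes. The distance of the members' median from that of all genes was -0.23, and with no filter on dim probes it was 0.043. The lowest were Ndufc1 at -0.68, Ndufaf4 at -0.67, Ndufb9 at -0.64, Ndufv3 at -0.61 and Ndufs7 at -0.56. The highest were Ndufaf3 at 0.63, Ndufs1 at 0.20, Ndufs8 at 0.13, Ndufs3 at 0.07 and Ndufs4 at 0.05. The nuclear core subunits were close to all genes (median -0.09), and all 11 distal-arm members lay below 0 (median -0.38). The X-linked Ndufa1 and Ndufb11 were at -0.52 and -0.54, within the range of the autosomal members. The part of sex in these differences was not tested. Over the 3 fractions together limma called 0 genes (0% of 18882) for KO over WT, and 2 with normexp. At an unadjusted p under 0.05 it had 342 genes higher and 495 lower, with 0 members higher and 1 lower, which was Ndufaf4 (-0.85 on the log2 scale, SE 0.31, adjusted p = 1.00).

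**Figure D4:**
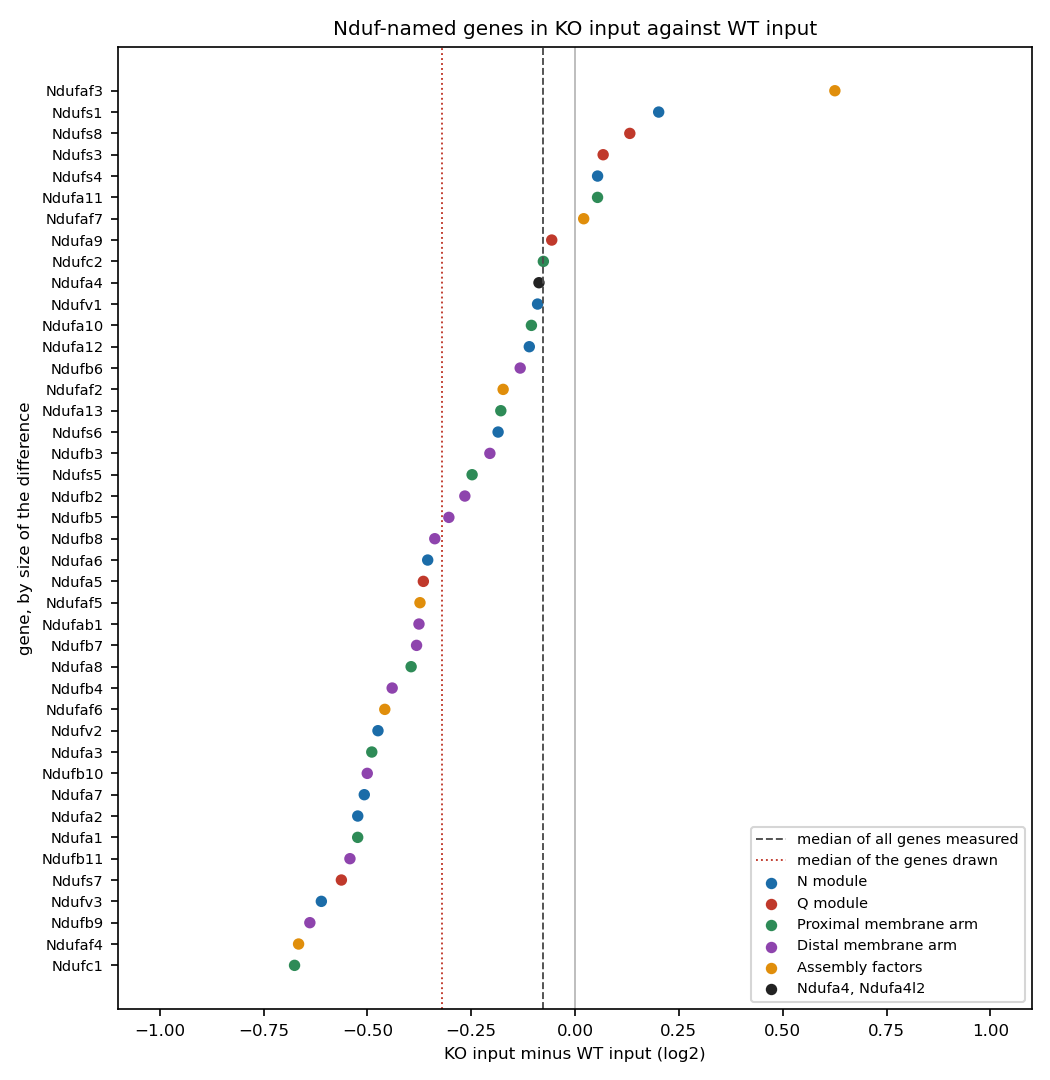
KO input minus WT input (log2) for 42 Nduf-named genes measured in both, in order of the difference and coloured by role, with the medians of the genes drawn (dotted, -0.32) and of all measured genes (dashed, -0.08). All points lie between -0.68 and 0.63, within 2-fold.

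On the AGO2-RIP arrays themselves, members had a median of -0.45 in KO minus WT, with all genes at -0.03. Of 42 members 0 were 2-fold or more higher in KO and 9 that much lower, against 6.90% and 11.0% of 16380 genes. The 5 lowest were Ndufa7 at -2.18, Ndufa11 at -1.61, Ndufa3 at -1.40, Ndufs4 at -1.21 and Ndufa4 at -1.21, and 4 of these, Ndufa3, Ndufa4, Ndufa7 and Ndufs4, were also the 4 highest over IgG-RIP in WT, a comparison that shares the WT AGO2-RIP array. Among the highest were Ndufaf2 at 0.97, Ndufa13 at 0.86, Ndufa10 at 0.76 and Ndufv1 at 0.55. Ndufaf3 was at least 2.22-fold lower and Ndufa4l2 at least 1.85-fold higher in KO than in WT AGO2-RIP RNA (limma adjusted p for KO over WT 1.00 and 1.00).

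The difference between AGO2-RIP and IgG-RIP was smaller in KO than in WT for 35 of 42 members, against 51.3% of all genes, with a median gap of -0.72 where all 14035 genes had -0.03. At least 2-fold larger in KO were 2 of 42 members and at least 2-fold smaller 18, against 16.5% and 20.2% of all genes. The N module had 6 of 10 members at least 2-fold smaller in KO (median -1.50), the distal arm 6 of 11 (median -1.04), the Q module 3 of 6 (median -1.11) and the proximal arm 2 of 9 (median -0.38). The widest gaps after Ndufa7 (-3.43) were those of Ndufs4 (-2.31), Ndufc1 (-2.23), Ndufv2 (-1.84) and Ndufs1 (-1.73). The opposite direction was seen, among others, for Ndufa1 (1.17), Ndufaf5 (0.77), Ndufb10 (0.51) and Ndufaf4 (0.33). For Ndufaf4 this held for the brightest probe only, and its dimmer probe went the other way. The difference combines 4 arrays. Its AGO2-RIP and IgG-RIP parts are described for the members in the paragraphs above, beside all genes. At the 2-fold size, 6.90% of all genes were higher and 11.0% lower in KO than in WT AGO2-RIP RNA. In IgG-RIP RNA 28.8% of all genes in KO and 37.0% in WT were that far below input. With 1 array per group this difference of differences could not be tested.

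The rest of the respiratory chain was counted in the same way. The 7 mitochondrially encoded subunits, listed on the arrays as ND1 to ND6 and ND4L, had AGO2-RIP over IgG-RIP medians of -0.26 in KO and 1.17 in WT, with 1 of 7 at least 2-fold higher in KO and 4 of 7 in WT. Highest were ND3 and ND1, and lowest ND5 and ND6. Against input they were at -0.99 in KO and -1.08 in WT in AGO2-RIP RNA. In KO minus WT input all 7 lay below 0 (median -0.61), with ND1 lowest at -1.07. The array annotation places the ND3 and ND4L probes on chromosome 1, where a nuclear copy of mitochondrial sequence would also be detected. Among 8 assembly factors with other names, 5 were measured in both genotypes, with medians over IgG-RIP of -0.49 in KO and -0.39 in WT. The 39 genes of complexes II to V had 0.05 in KO and 0.84 in WT, with 2 genes past 2-fold upward and 1 downward in KO, and 14 upward and 1 downward in WT. In that list Cox5a was highest in both genotypes, and it gave 5.61 in KO and 6.62 in WT AGO2-RIP RNA, 3.38 in KO and 3.49 in WT IgG-RIP RNA, and 5.23 in KO and 5.41 in WT input RNA. Of the 39 genes, 32 in KO and 22 in WT were at least 2-fold below input in AGO2-RIP RNA.

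Promoters are given because nuclear genes of the respiratory chain are known to share regulators, among them NRF1, YY1 and ETS factors. RefSeq promoters (build GRCm38.p6, 300 bases each, mostly upstream of the start) were found for 39 of the 45 genes, as 41 windows. Short motif cores were searched on both strands, and in 0 of the 41 windows did matches of different cores share bases. The NRF1 and YY1 cores were chosen after longer forms of both motifs had been searched in the same windows, so these shares are a description only. The NRF1 core GCGCNTGCG was in 12 windows (29.3%), against 6.31% of all 32851 mouse windows. Ndufa5 has overlapping windows that hold the same NRF1 match, so this site was counted more than once. The YY1 core AAGATGGCG was in 5 (12.2%), against 1.40%, and the ETS core CCGGAAG in 5 (12.2%), against 8.86%. NRF1 matches were in Ndufa5, Ndufa6, Ndufa8, Ndufa11, Ndufa12, Ndufaf4, Ndufaf5, Ndufb4, Ndufb10, Ndufs5 and Ndufs6, YY1 matches in Ndufa9, Ndufc1, Ndufs4, Ndufs6 and Ndufs7, and ETS matches in Ndufaf1, Ndufb6, Ndufb7, Ndufs3 and Ndufs8. Ndufs6 is shown because it holds the NRF1 and YY1 cores and Ndufs4 because it stood high over IgG-RIP, with the matches in capitals.
Ndufs6: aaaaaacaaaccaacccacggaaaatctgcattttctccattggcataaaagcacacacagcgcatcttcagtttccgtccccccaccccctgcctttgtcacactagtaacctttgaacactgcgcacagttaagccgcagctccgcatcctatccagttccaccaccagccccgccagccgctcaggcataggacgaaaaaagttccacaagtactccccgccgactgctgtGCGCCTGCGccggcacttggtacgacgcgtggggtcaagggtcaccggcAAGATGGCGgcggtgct
Ndufs4: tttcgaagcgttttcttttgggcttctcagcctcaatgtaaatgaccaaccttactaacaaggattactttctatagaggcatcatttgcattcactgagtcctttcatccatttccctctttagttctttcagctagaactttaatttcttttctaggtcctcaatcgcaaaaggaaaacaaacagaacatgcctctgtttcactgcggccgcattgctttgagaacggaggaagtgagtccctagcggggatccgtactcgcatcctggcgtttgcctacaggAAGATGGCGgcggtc
The Ndufs6 window is chr13:73328433-73328732 and the Ndufs4 window chr13:114388045-114388344, both GRCm38.p6 and on the minus strand. A match is a run of letters and not a measured binding site. Genes with and without matches lay on both sides of the members' median in AGO2-RIP over IgG-RIP. In WT, of genes with a match, Ndufa5 and Ndufs4 were above it and Ndufs6 and Ndufaf5 below it. Of genes without a match, Ndufa3 and Ndufa7 were above it and Ndufa1 and Ndufa13 below it.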

How the data were processed

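RNA of 6 groups was hybridised to 6 one-colour Agilent arrays, 1 per group, on 1 slide. Per the labels' protocols, RNA from the precipitates was pre-amplified as cDNA, of which 500 ng went through digestion by Alu I plus Rsa I and Cy3 labelling. The deposited files hold processed signal intensity from Agilent Feature Extraction 10.7.3.1, per the submitters' processing notes, corrected for background within each array, per the file headers, with no step between arrays. From the deposited intensity, log2 values minus each array's 75th percentile over 59305 non-control spots were computed. Spots flagged as outliers were dropped (54 probes were lost, 55627 kept), spots of a probe were averaged, and each of 34812 gene names took its brightest probe. A gene counted as measured when well above background on every array of a comparison.

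The members and lists were chosen with earlier results of these data known. Named genes follow a rule: values on every array for the nuclear core subunits, Dicer1 and the 5 highest and 5 lowest members of each comparison; other members were added to complete the role groups. One item is counted in the totals and not reported here. limma 3.58.1 in R 4.3.3 (lmFit, eBayes, fraction plus genotype, genes above background on at least 2 arrays, Benjamini-Hochberg) was the test, tested on simulated data. The error behind its p-values is the part of the fraction effect that differs between genotypes, and not a spread between replicates. Alternatives were normexp (offset 50), median centring, quantile normalization, the median of a gene's probes, 2 other filters, a 1.5-fold size, no genotype term and each array left out. Restriction to genes with a mean input signal of at least 2 was chosen after seeing the data. Python 3.11.15, numpy 2.4.6, pandas 2.3.3 and matplotlib 3.10.9 were used. The number of arrays limits the precision.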

Additional observations from a re-analysis of the deposited data

Results flagged for a closer look

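These 11 results had opposite directions in KO and WT, each beyond the noise between spots. With 1 array per genotype and fraction the difference between genotypes was not tested. The rule was applied to members only. How common such results were among all genes was not counted, so their number is not a result about the members. For AGO2-RIP minus IgG-RIP, 7 members were below 0 in KO and above 0 in WT, with KO minus WT at -1.73 for Ndufs1, -1.62 for Ndufb6, -1.46 for Ndufb5, -1.39 for Ndufa9, -1.04 for Ndufb4, -0.82 for Ndufs3 and -0.56 for Ndufb8. The reverse held for Ndufa1 (KO 0.88, WT -0.29, a gap of 1.17). For AGO2-RIP minus input, 3 members were below 0 in KO and above 0 in WT: Ndufa7 (KO -0.86, WT 0.82, a gap of -1.67), Ndufa11 (KO -1.32, WT 0.34, a gap of -1.66) and Ndufs4 (KO -0.50, WT 0.76, a gap of -1.26). Genotype, sex as the arrays show it, slide row and the difference at Lyz2 cannot be told apart in these gaps.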

How the results depend on the processing

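No paired analysis was possible because each group has 1 array and the labels give no replicate numbers, beyond the genotype term of the limma fit, which compares fractions within a genotype. The distance of the members' median from that of all genes kept its sign in all 9 comparisons under all alternatives, except that KO input minus WT input, -0.23, was 0.043 with no filter on dim probes, where the median of all genes was -0.33. AGO2-RIP minus IgG-RIP in WT, 1.21, was 0.99 with normexp and 0.78 for bright genes. Distances that moved by over 0.22 are given, a fixed size taken from single spots and not the spread of a median. Among bright genes the others were -0.38 in KO and -0.54 in WT for AGO2-RIP minus input, -0.67 in KO and -1.03 in WT for IgG-RIP minus input, and -0.45 for KO minus WT of AGO2-RIP minus IgG-RIP. Quantile normalization gave -0.51 in KO and -0.64 in WT for AGO2-RIP minus input, and -0.90 in KO and -1.32 in WT for IgG-RIP minus input. AGO2-RIP minus input in WT was -0.66 with the median of probes and -0.41 with no filter, and with no filter IgG-RIP minus input was -1.86 in KO and -2.09 in WT. limma calls among members moved most. For AGO2-RIP over IgG-RIP 0 were called in the reported fit. With normexp 2 were higher, with genes above background on all 6 arrays 4, among bright genes 3 and without the genotype term 2. Of all genes these settings called 227 of 18869, 542 of 12368, 473 of 5807 and 140 of 18882 higher. For AGO2-RIP over input 1 was higher and 5 lower in the reported fit. Here normexp gave 2 and 20, median centring 0 and 13, quantile 0 and 0, and the all-array filter 2 and 20. No filter gave 0 and 2 and bright genes 2 and 23. The median of probes gave 0 higher, and the fit without genotype 9 lower. With 1 array left out a fraction rests on 1 array, so calls of those fits are not given. Lower calls over all genes moved too: 1085 of 18882 in the reported fit, 2414 of 18869 with normexp, 1991 with median centring, 0 with quantile, 2584 of 12368 with the all-array filter, 572 of 34812 with no filter and 2546 of 5807 among bright genes. For IgG-RIP over input, where 31 were lower, quantile gave 7 and normexp 33. Of all genes 2988 were lower in the reported fit, 1258 with quantile and 3892 with normexp. Median centring moved the limma median of all genes from -0.03 to -0.42 for AGO2-RIP over input and from -0.25 to -0.79 for IgG-RIP over input. Apart from the effect of fewer or more genes tested, the cause of these shifts was not tested. At the looser 1.5-fold size, 16 members instead of 8 were higher in KO AGO2-RIP than IgG-RIP. The share of all genes at that size is not given, so this rise is not a result about the members. Dim signal limits Ndufaf1, Ndufaf3 and Ndufa4l2.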
